A study of Mus musculus with 3 samples.

Results

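Basal keratinocytes with high levels of mitotic transcripts were examined in single-cell RNA libraries of mouse ear epidermis. Cells with at least 500 detected genes and at most 10% mitochondrial UMIs (tags that mark single captured transcripts) were kept. A kept cell was basal when Krt5 and Krt14, the keratins of the basal layer, made up at least 0.5% of its UMIs. It was called gate-positive when Ube2c, Cdc20, Ccnb1, Cenpa and Cenpf summed to at least 5 UMIs. Of 5340 kept cells, 2593 were basal and 354 were gate-positive, 81, 109 and 164 in replicates 1, 2 and 3. The comparison class of 2156 resting basal cells (408, 886 and 862) had a gate sum under 2 and fewer than 10 UMIs of the histone genes Hist1h1b, Hist1h2ap and Hist1h2ae together. The cells were selected on the measured UMIs of the 5 gate genes, the keratins and, for resting cells, the histones, so the levels of these genes are described without a test. Because 180 of the 354 also held at least 10 UMIs of those histone genes, a mark of DNA replication, the working name G2/M-phase basal keratinocytes does not cover them all, and they are called gate-positive here.

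All 3 libraries belong to 1 group of C57BL/6N mice aged 9 weeks with no treatment named in the labels, and hold ear epidermal cells released with trypsin and frozen before use. C57BL/6N is an inbred laboratory strain. Sex is not stated, nor is it said that each replicate is a different mouse, and p-values may therefore reflect only the spread of the libraries. Summed UMIs of gate-positive cells were 1465653, 1220053 and 2267625 per replicate. No barcode was gate-positive in more than 1 library, and 16 barcodes of kept cells were shared between libraries, 2 of them with a gate-positive cell.

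Basal keratinocytes are the dividing cells of the epidermis, attached to the basement membrane by integrins and hemidesmosomes. Their daughters either stay basal or move up, switching from Krt5 and Krt14 to Krt1 and Krt10. Replication-dependent histone genes are transcribed mainly while DNA is copied, and their messages are removed when replication ends. Cyclin B1 (Ccnb1), the anaphase activator Cdc20, the ubiquitin-conjugating enzyme Ube2c, the centromeric histone Cenpa and the kinetochore protein Cenpf accumulate towards mitosis and serve chromosome segregation.

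The start regions of the 5 gate genes are shown because genes of this phase are known to share promoter elements. The CHR element (cell cycle genes homology region, TTTGAA) is bound by the MuvB complex, and CCAAT boxes are bound by NF-Y. Each line runs 5′ to 3′ on the gene's strand from base -120 before the RefSeq start (build GRCm38.p6), ending sooner where more than 30 bases would pass the GENCODE M21 start. Capitals mark TTTGAA or CCAAT on either strand (TTCAAA and ATTGG on the other strand).
Ube2c, chr2:164769809-164769927, plus strand: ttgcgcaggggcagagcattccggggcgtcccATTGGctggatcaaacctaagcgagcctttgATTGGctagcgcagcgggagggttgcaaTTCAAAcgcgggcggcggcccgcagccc
Cdc20, chr4:118437344-118437463, minus strand: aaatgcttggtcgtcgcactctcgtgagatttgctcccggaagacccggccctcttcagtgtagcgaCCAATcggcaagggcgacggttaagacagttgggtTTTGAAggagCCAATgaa
Ccnb1, chr13:100786541-100786606, minus strand: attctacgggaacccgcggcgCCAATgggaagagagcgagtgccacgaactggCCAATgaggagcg
Cenpa, chr5:30666766-30666806, plus strand: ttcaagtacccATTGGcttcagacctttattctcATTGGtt
Cenpf, chr1:189688087-189688206, minus strand: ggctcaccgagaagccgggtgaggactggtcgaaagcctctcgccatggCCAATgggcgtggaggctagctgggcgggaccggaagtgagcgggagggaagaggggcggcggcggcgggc
A CHR match lay at bases -29 to -24 of Ube2c and -18 to -13 of Cdc20. Cenpa and Cenpf had a match just past the start, at bases 17 to 22 and 3 to 8, and Ccnb1 had none in the window of 300 bases (250 before to 50 after the start). All 5 windows held CCAAT, and in Ube2c a pair of CCAAT matches on opposite strands overlapped.

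Among 95 genes of 7 mitotic gene lists with a RefSeq window (of 115, without the gate genes), 51 held TTTGAA on either strand (53.7%) and 64 held CCAAT (67.4%). Over all 27025 genes with a window the shares were 20.2% and 41.1%. Over the 8010 of them tested below against resting cells they were 14.0% and 43.1%. Of 31 DNA replication genes with a window, 5 held TTTGAA (16.1%) and 21 CCAAT (67.7%). These matches describe letters in a window, not binding.

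Among basal cells, gate-positive cells took 16.1%, 10.7% and 15.3% in replicates 1, 2 and 3, with exact 95% Clopper-Pearson intervals of 13.0 to 19.6%, 8.87 to 12.8% and 13.2 to 17.6%. These intervals cover counting error only. The mean was 14.0 ± 2.91% (SD, n = 3), and replicate 2 was lowest, its interval ending below that of replicate 3. A gate of 5 other genes (Cdk1, Ccnb2, Birc5, Tpx2 and Nusap1, at least 5 UMIs) selected 360 basal cells. Of these, 324 were shared, 91.5% of the gate-positive cells and 90.0% of the cells of the other gate.

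The gate sum ran from 5 to 184 UMIs per cell with a median of 30. Cenpa was detected in 95.8% of gate-positive cells, Cenpf in 91.8%, Cdc20 in 88.4%, Ube2c in 85.3% and Ccnb1 in 83.9%. In resting cells, where the rule allows at most 1 gate UMI, the shares ran from 0.835% for Cenpf to 2.32% for Cdc20. Just inside the threshold lay 15 cells with a sum of 5, with a median of 1633 UMIs and 5 UMIs of the other gate. Just outside it lay 17 cells with a sum of 4, with medians of 6263 UMIs and again 5 of the other gate. The basal cells with a sum of 2 to 4 numbered 74 in all and entered no gene comparison.

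Ube2c reached 1080.1, 1102 and 1036 CPM (counts scaled to a total of 1000000 UMIs) in gate-positive cells of replicates 1 to 3, against 1.09, 0.921 and 2.35 in resting cells. Cenpa was at 725, 814 and 699 CPM against 1.30, 1.54 and 1.80. Ccnb1 was at 313, 257 and 273 CPM against 0.869, 0.154 and 2.07. The classes stood apart in every library, as the rule requires.

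Gate-positive cells were deeper than resting cells. Median UMIs per cell were 18816, 11423 and 14523.5 in replicates 1 to 3, against 11418, 7305.5 and 8143.5. With every cell thinned to 5000 UMIs, which left out 45 gate-positive and 400 resting cells, median genes per cell were 1875, 1843 and 1857 against 1729, 1683 and 1720.5. With the gate sum scaled to each cell's depth the mean share was 14.8%.

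The histone count split the gate-positive cells. Rule histones, which make the nucleosomes of newly copied DNA, reached at least 50 UMIs in 144 gate-positive cells and 0 to 4 UMIs in 142, with 68 cells between. Cells with at least 10, called histone-high below, numbered 47, 49 and 84 in replicates 1 to 3, or 58.0%, 45.0% and 51.2% of the gate-positive cells (mean 51.4 ± 6.54%, SD, n = 3). The other 174 are called histone-low. Median UMIs per cell were 16002 in histone-high and 10852.5 in histone-low cells. Of all 207 basal cells with at least 10 rule histone UMIs, 180 (87.0%, exact 95% interval 81.6 to 91.2%) passed the gate.

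**Figure D1:**
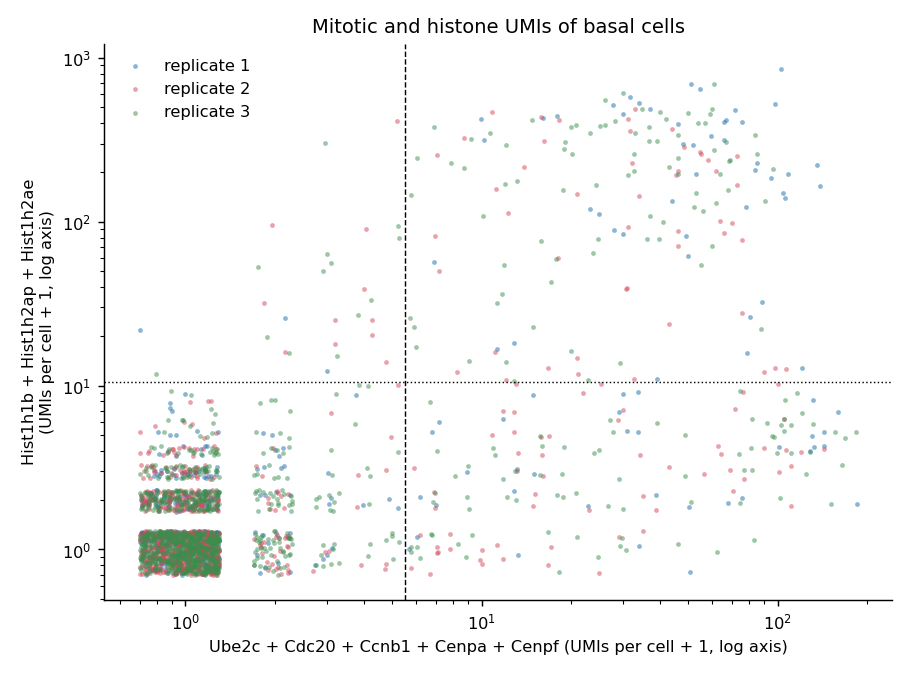
Rule histone UMIs (vertical, log scale) against the gate sum (horizontal, log scale) for each basal cell, both as UMIs plus 1, coloured by replicate, with dashed and dotted lines at the gate and at 10 histone UMIs. Right of the gate, 144 cells lie at 50 or more histone UMIs and 142 at 0 to 4.

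The histone-high share was 33.3% of 57 cells with a gate sum of 5 to 9, 47.9% of 73 at 10 to 19, 63.1% of 103 at 20 to 49 and 50.4% of 121 at 50 or more. Median UMIs per cell went from 4803 in the lowest of these bins to 18469 in the highest, and the part of depth in these shares was not tested. Gate genes were present in both kinds. Ube2c was at 1001 ± 57.3 CPM (of total UMIs, SD, n = 3) in histone-high and 1170 ± 16.2 in histone-low cells, and Ccnb1 at 202 ± 41.8 and 395 ± 54.6. Per cell, Ube2c was detected in 98.9% of histone-high and 71.3% of histone-low cells.

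Basal keratins marked both classes, as the rule requires. Krt14 was at 13373 ± 1631 CPM in gate-positive and 14821 ± 1498 in resting cells, and Krt5 at 5308 ± 753 and 5090.2 ± 550.3. Markers of other cell types were summed per library. T cell markers reached 1.32 to 1.64 CPM in gate-positive cells, where 7 of 10, Cd3e and Trdc among them, were at 0, and 1.24 to 9.21 in resting cells. Langerhans cell markers summed to 187 to 245 against 115 to 162 CPM. Of their 1077 UMIs in gate-positive cells, 940 were of the epithelial adhesion gene Epcam, while langerin (Cd207) had 1. Hair follicle markers summed to 304 to 444 against 373 to 527 CPM. Of their UMIs, Postn gave 1501 of 1939 in gate-positive and 5349 of 8521 in resting cells, while the follicle stem cell gene Lgr5 had 1 and 68. Sebocyte markers summed to 264, 132 and 123 CPM in gate-positive cells of replicates 1 to 3 against 138, 155 and 203, higher in replicate 1 alone. Melanocyte markers summed to 2.73 to 4.92 against 6.76 to 8.57 CPM, and dermal and vessel markers to 2.65 to 6.82 against 4.84 to 27.1. Scrublet marked 3 gate-positive cells as doublets, all in replicate 1, of 30 among kept cells.

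UMIs were summed per library and class, and gate-positive cells were compared with resting cells by edgeR's quasi-likelihood test with library as a block and Benjamini-Hochberg adjustment (called at 0.05). Of 10134 genes tested, 36.2% were called, 1973 higher (19.5%) and 1698 lower (16.8%) in gate-positive cells. DESeq2 called 1236 higher and 693 lower, and leaving out replicate 3 left 1127 lower. Without the histone-high cells, 1106 of 9917 genes were higher (11.2%) and 819 lower (8.26%), and list counts given for that setting are to be read against these shares. From here CPM in this comparison are scaled with TMM, which removes composition differences, and values in brackets are log2 differences ± SE. The gate favours genes of mitosis and the histone limit on resting cells favours replication genes, so both are described and support nothing. The median log2 difference over all genes was -0.03. The libraries of the classes did not overlap for 4647 of the 10134 genes (45.9%), so lack of overlap is common in this comparison.

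All 19 tested G2/M cyclins and kinases were higher (median log2 difference 6.17). Cdk1, the kinase that drives entry into mitosis, was at 516, 465 and 456 CPM in replicates 1 to 3 against 6.14, 2.40 and 9.15 in resting cells (6.32 ± 0.22, adjusted p = 2.92e-09). Cks2, a small partner of Cdk1, was at 661.9, 653.1 and 589.2 against 29.8, 30.5 and 37.4 CPM (4.27 ± 0.10). For both genes the lowest gate-positive library lay far above the highest resting one. Polo-like kinase Plk1 differed by 7.63 ± 0.20 and cyclin Ccnb2 by 7.54 ± 0.22.

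The machinery that moves chromosomes was higher as a whole. All 29 spindle genes (median 5.99), 26 kinetochore and checkpoint genes (5.14) and 4 chromosomal passenger genes (6.89) were called higher. Tubb5, a beta-tubulin, was at 2476, 2028 and 2160 CPM against 233, 177 and 249 (3.34 ± 0.08), and Tubb4b differed by 2.26 ± 0.05. Birc5, or survivin, was at 702, 663 and 672 CPM against 3.07, 1.92 and 5.69 (7.52 ± 0.18). Bub3 of the spindle checkpoint differed by 2.24 ± 0.08 and Spc24 of the kinetochore by 5.91 ± 0.20.

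Chromatin and exit genes followed. Condensins, topoisomerase and mitotic chromatin genes were higher in 16 of 16 (median 3.63), led in level by H2afz, a histone variant, and Hmgb2, a chromatin protein, which differed by 2.94 ± 0.06 and 3.61 ± 0.08. Of 11 anaphase and mitotic exit genes 10 were higher (median 0.85), with Ube2s, which extends ubiquitin chains, at 2.84 ± 0.09 and the anaphase-promoting complex subunit Anapc5 at 0.65 ± 0.07. All 14 cytokinesis genes were higher (median 5.12), with the midzone protein Prc1 at 5.27 ± 0.12 and the actin regulator Rhoa at 0.43 ± 0.07, which did not pass the test without histone-high cells (0.28, adjusted p = 0.0527).

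Of 13 cell cycle transcription factors 11 were higher (median 2.07). Foxm1, an activator of mitotic genes, was at 61.7, 75.4 and 65.0 CPM against 0.438, 0.319 and 2.08 (5.97 ± 0.32). Tfdp1, the partner of E2F factors, differed by 0.70 ± 0.12, but by -0.44 without the histone-high cells (adjusted p = 0.192). Replication genes were higher in 39 of 40 (median 1.79) and clustered histones in 14 of 14 (3.51). Clustered histone genes have near-identical copies, so their single values are uncertain. Hist1h1e, a linker histone, was at 483, 393 and 366 CPM against 33.8, 41.7 and 35.6 (3.47 ± 0.11), and without histone-high cells at -0.085 (adjusted p = 0.809).

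**Figure D2:**
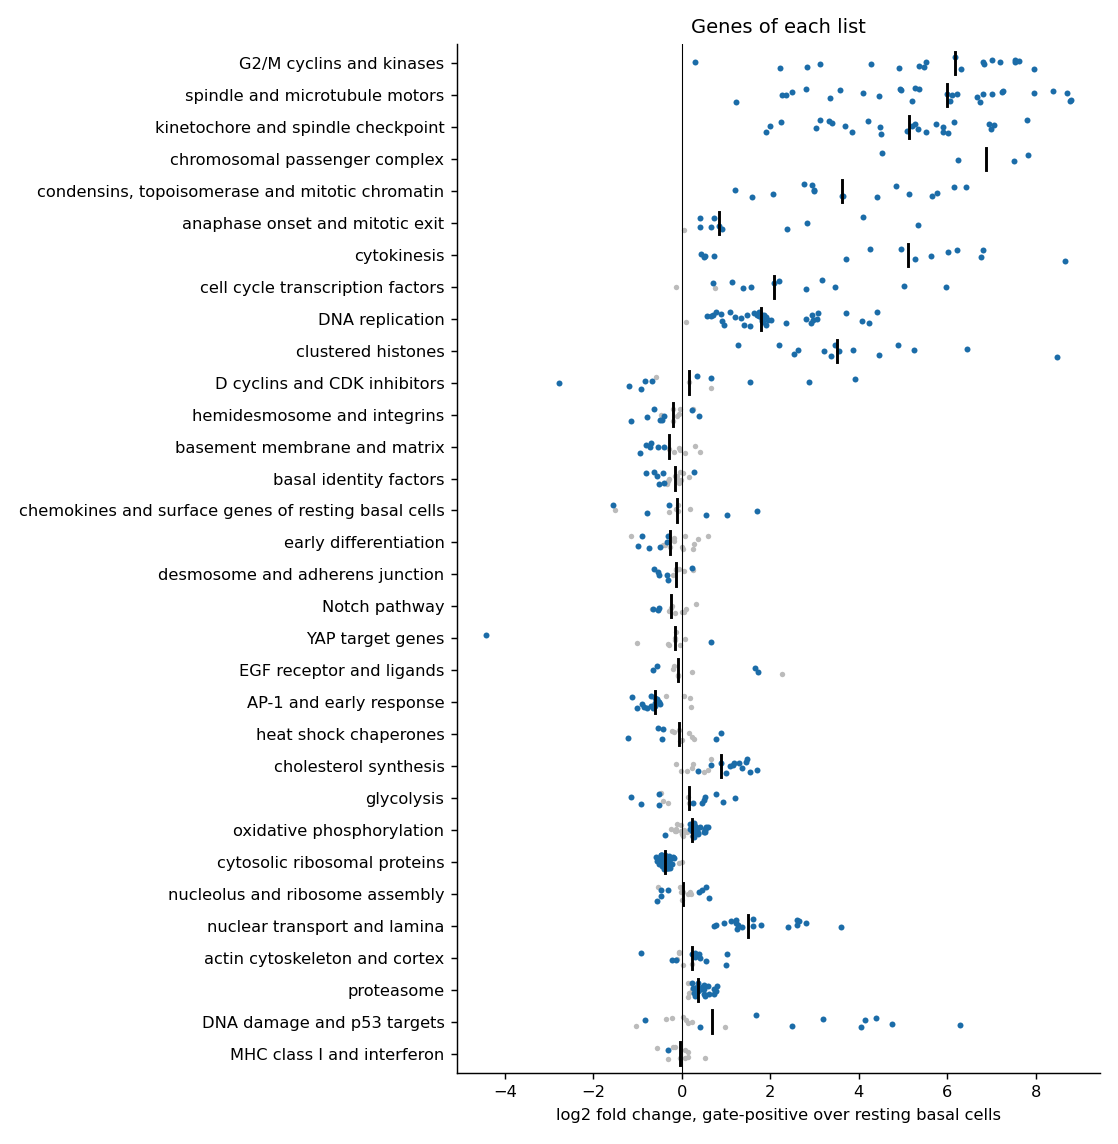
Log2 differences of gate-positive against resting cells for the genes of the lists drawn (points, blue where called, with a bar at the median of the list), horizontal axis in log2 units. The list of late differentiation genes (median 0.38) and the markers of other cell types are not drawn. Lists of cyclins, spindle, kinetochore, passenger, chromatin and cytokinesis genes lie at medians of 3.63 to 6.89, while ribosomal protein genes lie at -0.37.

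D cyclins and inhibitors of cyclin-dependent kinases split by gene: 5 of 13 were higher and 5 lower, against 19.5% and 16.8% of all genes. Ccnd2, a D cyclin that drives entry into S phase, fell from 746.7, 743.1 and 834.5 CPM in resting cells to 85.5, 114.7 and 142.4 (-2.77 ± 0.10, adjusted p = 4.37e-09). Ccnd1 was at 61.7, 57.8 and 102.9 against 175, 154 and 185 CPM (-1.20 ± 0.12, adjusted p = 2.18e-05). The libraries of the classes did not overlap for either cyclin, as for 45.9% of all genes, and Ccnd3 was higher by 0.33. The low Ccnd1 levels were mainly those of histone-high cells and of gate sums of 50 or more, as given below.

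The INK4 inhibitors Cdkn2d and Cdkn2c, which block Cdk4 and Cdk6, were higher. Cdkn2d was at 334, 289 and 274 CPM against 20.6, 20.9 and 18.0 (3.91 ± 0.09, adjusted p = 1.11e-10), and Cdkn2c at 193, 157 and 151 against 21.3, 25.9 and 20.4 (2.88 ± 0.12). Every gate-positive library lay above every resting one. Their relative Cdkn2b did not pass the test (-0.58 ± 0.43, adjusted p = 0.323). Cdkn1b, or p27, was higher by 0.65 ± 0.09 and the antiproliferative gene Btg1 lower by 0.92. Cdkn1a, or p21, did not pass the test at 148, 225 and 156 against 110, 186 and 174 CPM (0.16 ± 0.10, adjusted p = 0.25).

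**Figure D3:**
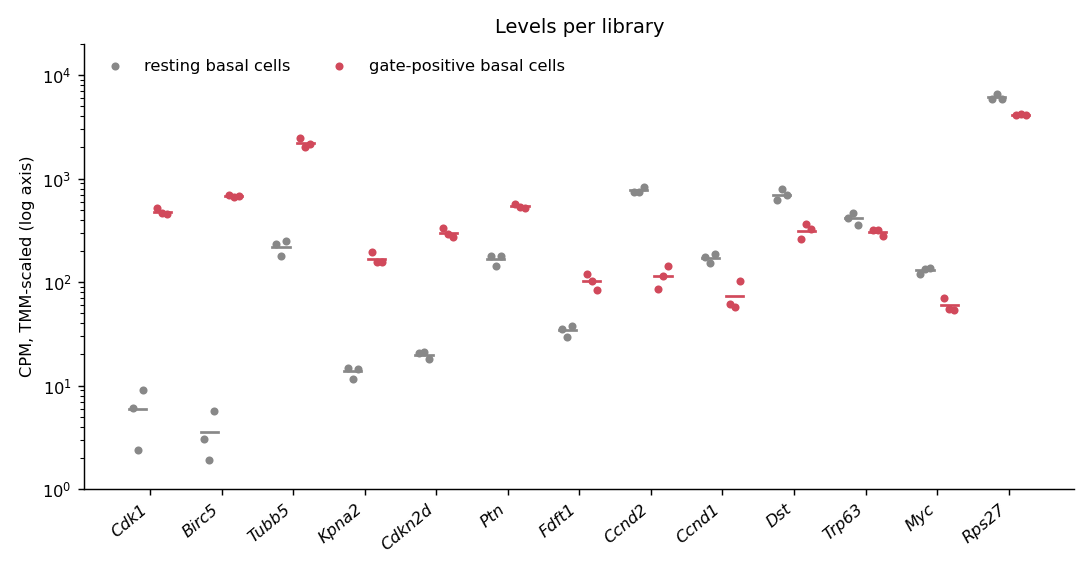
TMM-scaled CPM (vertical, log scale) of named genes in the gate-positive and resting cells of each of the 3 libraries (points, with bars at their means). Ccnd2 lies at 85.5 to 142.4 in gate-positive and 743.1 to 834.5 CPM in resting cells, and Cdkn2d in the opposite order.

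All 18 genes of nuclear transport and the lamina were higher (median 1.49), against 19.5% of all genes. Kpna2, an importin, was at 194, 158 and 155 CPM against 14.9, 11.7 and 14.6 (3.61 ± 0.11, adjusted p = 9.38e-10). The lamins Lmnb1 and Lmnb2 were higher by 2.65 and 2.81, and the inner membrane proteins Tmpo and Lbr by 2.61 and 2.60. Proteasome genes were higher in 23 of 27 (median 0.36), against the same 19.5%. Their ATPase subunit Psmc4 differed by 0.80 ± 0.09. Without histone-high cells 14 of the 27 were higher, against 11.2% of all genes there.

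Cytosolic ribosomal protein genes were lower in 49 of 51 (median -0.37) and higher in none, against 16.8% and 19.5% of all genes. Rps27 was at 4136, 4177 and 4082 CPM against 5929, 6620 and 5910 (-0.57 ± 0.05, adjusted p = 3.26e-06). Oxidative phosphorylation genes were higher in 22 of 38 (median 0.23), against 19.5% of all genes. Among them was the cytochrome oxidase subunit Cox5a at 0.58 ± 0.07. Without the histone-high cells 7 of the 38 were higher, against 11.2% of all genes there. These directions held with total UMIs in place of TMM.

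Attachment genes were lower in part. Of 15 hemidesmosome and integrin genes 6 were lower and 2 higher (median -0.19), against 16.8% and 19.5% of all genes. Dst, which ties keratin filaments to hemidesmosomes, was at 260, 362 and 324 CPM against 622, 788 and 689 (-1.15 ± 0.06, adjusted p = 1.62e-07), with no overlap between classes. Col17a1, a hemidesmosome collagen, differed by -0.41 ± 0.07 and integrin Itga6 by -0.44 ± 0.10. Its partner Itgb4 did not pass the test (-0.07 ± 0.07). Without histone-high cells 2 of the 15 were lower, against 8.26% of all genes there.

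Of 13 basement membrane genes 6 were lower and none higher (median -0.30), against 16.8% and 19.5% of all genes. Without histone-high cells 3 of 14 were lower and 1 higher, against 8.26% and 11.2% of all genes there. Laminin-332 chains Lama3 and Lamb3 differed by -0.95 ± 0.12 and -0.81 ± 0.09, and the anchoring collagen Col7a1 by -0.72 ± 0.10. Of 19 basal identity factors 6 were lower and 1 higher, against 16.8% and 19.5% of all genes. The model with histone-high and histone-low cells apart, described below, tested the same 19 against resting cells. In histone-low cells 3 were lower and 2 higher, where 901 of all 8224 genes were lower and 1268 higher. In histone-high cells 9 were lower and 1 higher, where 1501 of all 8224 genes were lower and 1644 higher. Trp63, the master factor of the epidermal lineage, was at 319, 318 and 277 CPM against 417, 463 and 357 (-0.43 ± 0.07, adjusted p = 0.000523). Id3, an inhibitor of differentiation factors, differed by -0.82 ± 0.09 and the keratin Krt15 by -0.55 ± 0.09.

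Of 12 tested genes in a list of chemokines and surface genes of resting basal cells, 3 were higher and 3 lower. Of all genes, 19.5% were higher and 16.8% lower. Ptn, a secreted growth factor, was at 564, 538 and 517 CPM against 179, 142 and 179 (1.70 ± 0.08, adjusted p = 4.11e-08). Thy1 was higher by 0.56 ± 0.07. Ccl27a, a chemokine that attracts T cells to skin, was at 99.0, 77.8 and 77.5 against 167, 418 and 224 CPM (-1.56 ± 0.22), its resting level highest in replicate 2.

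Of 19 early response genes 15 were lower (median -0.60) and none higher, and 12 were lower without replicate 3. The shares of all genes called lower were 16.8%, and 11.3% without replicate 3. Myc, a growth regulator, was at 70.5, 54.6 and 53.8 CPM against 119, 132 and 138 (-1.14 ± 0.12, adjusted p = 2.76e-05). Fos was lower within each library, at 444, 973 and 817 against 694, 1155 and 1397 CPM (-0.56 ± 0.09), although the ranges overlapped across libraries.

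Genes of the cholesterol list, enzymes of its synthesis and their regulators, were higher in 13 of 21 (median 0.88) and lower in none. The shares over all genes were 19.5% and 16.8%. Fdft1, or squalene synthase, was at 119, 104 and 83.9 CPM against 35.5, 29.5 and 37.7 (1.55 ± 0.14, adjusted p = 7.23e-06). The sterol demethylase Cyp51 differed by 1.30 ± 0.16. For both genes no gate-positive library overlapped a resting one. Of 6 tested sebocyte markers, which include lipid enzymes, 1 was higher and 2 lower (median -0.01), and their part in the result was not tested.

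Early differentiation genes were lower in 6 of 19 (median -0.27) and none higher, and desmosome and adherens junction genes lower in 5 of 13 and higher in 1. Of all genes, 16.8% were lower and 19.5% higher. Cells with Krt1 and Krt10 at 0.5% or more of UMIs were commoner among resting cells. They made up 7.60%, 7.11% and 9.98% of resting cells in replicates 1 to 3, against 1.23%, 3.67% and 5.49% of gate-positive cells. Their part in the early differentiation result was not tested. The desmosomal cadherin Dsc3 was at 244, 302 and 258 CPM against 411, 409 and 420.5 (-0.63 ± 0.08, adjusted p = 7.9e-05). Of 12 Notch pathway genes 3 were lower, against 16.8% of all genes. The ligand Dll1 differed by -0.65 ± 0.15, but did not pass the test with DESeq2 (adjusted p = 0.0595) or without histone-high cells (-0.33, adjusted p = 0.266), and the receptor Notch1 did not pass the test (0.00 ± 0.09).

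Outside the cell cycle lists and the rule, 1787 of 9940 genes were higher (18.0%) and 1695 lower (17.1%). Several of the largest rises had too few resting UMIs for a fitted fold, so exact 95% intervals of the ratio of UMI shares are given, which cover counting error only. Mxd3, a Max partner, had 669 UMIs in gate-positive and 1 in resting cells, a ratio of 2478 (443 to 98039). Pimreg had 548 and 2 (1015, 280 to 8403), and Depdc1a 285 and 2 (528, 145 to 4380). Aspm, a spindle pole protein, had 750 and 5 UMIs. These genes reached 30 CPM in gate-positive cells alone, and the gate favours genes of mitosis also outside the lists. Their rises are therefore described and support nothing. Among genes with at least 30 CPM in the higher class, the largest fall was that of Krt17, at 14.9, 2.41 and 20.7 CPM against 224, 57.3 and 64.6 (-2.88 ± 0.34). Krt17 is also a hair follicle marker, and its resting level was highest in replicate 1. Below that level Ctgf, a target of YAP, had 2 UMIs in gate-positive and 173 in resting cells, a share 23.3-fold lower (6.37 to 194). Hotairm1, a long noncoding RNA, was at 68.5, 68.2 and 58.5 against 236, 216 and 213 CPM (-1.78 ± 0.08).

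Histone-high cells were next compared with histone-low gate-positive cells in 1 edgeR model that also held resting cells, a comparison chosen after the data were seen. Of 8224 genes tested, 576 were higher in histone-high cells (7.0%) and 319 lower (3.88%). With total UMIs in place of TMM the split was 420 and 577, as the median of all genes moved from -0.04 to -0.16. Leaving out replicate 2 left 278 and 88, and leaving out replicate 3 left 262 and 101. Among genes in no cell cycle list 6.14% were higher and 3.86% lower. The split used only the 3 rule histones, but it selects replicating cells, so replication genes are described.

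Replication genes were higher in 38 of 39 (median 1.77). Slbp, which binds histone messages, was at 275, 265 and 292 CPM in histone-high cells against 37.1, 49.3 and 31.6 in histone-low cells (2.87 ± 0.16, adjusted p = 6.11e-08). Pcna, the sliding clamp of DNA polymerase, was at 162, 180 and 214 against 49.5, 30.6 and 33.4 CPM (2.37 ± 0.18). Against resting cells, 13 of the 39 replication genes were higher in histone-low cells and 5 lower (median 0.43). Of all 8224 genes, 1268 were higher and 901 lower in that comparison. The genes named next therefore do not stand for the list. Slbp was lower in histone-low than in resting cells (-0.67, adjusted p = 0.00907), and Pcna did not pass the test (-0.42, adjusted p = 0.111). The helicase subunit Mcm6 was lower in histone-low than in resting cells by 0.78.

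Of 19 mitotic cyclins and kinases 4 were higher in histone-high cells and 1 lower (median 0.11), against 7.0% and 3.88% of all genes. Of 29 spindle genes 4 were higher and 1 lower, and 0 of 14 cytokinesis genes were called by edgeR. Kinetochore and checkpoint genes were higher in 8 of 26 (median 0.38) and lower in none. Condensins, topoisomerase and mitotic chromatin genes were higher in 7 of 16 (median 0.35) and lower in none. Cks2 was at 660.4, 659.8 and 596 CPM against 668, 673 and 578 (0.00 ± 0.11, adjusted p = 0.998). Cdk1 did not pass the test (0.49 ± 0.18, adjusted p = 0.0983). Ccnb2 was lower in histone-high cells by 0.53 and Top2a, the topoisomerase that untangles DNA, higher by 0.48.

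Ccnd2 was at 60.8, 58.4 and 100.7 CPM in histone-high against 136, 180 and 187.5 in histone-low cells (-1.18 ± 0.14, adjusted p = 0.000128), both below the resting mean of 786. Cdkn2d was higher in histone-high cells by 0.83 ± 0.09, and higher than in resting cells in both kinds (4.20 and 3.37). Cdkn1a was at 187, 328 and 182 against 68.1, 124 and 126 CPM (1.08 ± 0.17, adjusted p = 0.00077). Against resting cells Cdkn1a was higher in histone-high (0.53) and lower in histone-low cells (-0.55), 2 called differences of opposite sign that the pooled comparison did not show.

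Of 20 cholesterol genes 8 were lower in histone-high cells (median -0.75), against 3.88% of all genes. Without replicates 1, 2 and 3 it was 5, 4 and 5, against 2.53%, 1.03% and 1.3% of all genes. With DESeq2 it was 7, against 1.61%, and with total UMIs 10, against 7.02%. Msmo1, an enzyme of sterol demethylation, was at 16.2, 11.1 and 18.8 CPM against 111, 39.1 and 53.2 (-2.04 ± 0.27, adjusted p = 0.000213). Against resting cells it was higher in histone-low cells (1.93) and did not pass the test in histone-high cells (-0.12). Of 20 tested genes of this list 13 were higher in histone-low than in resting cells (15.4% of all genes were), and 7 in histone-high cells (20.0% of all genes were). The 6 tested sebocyte markers had a median of -0.59 between histone-high and histone-low cells and 0.34 between histone-low and resting cells, and their part in these values was not tested.

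**Figure D4:**
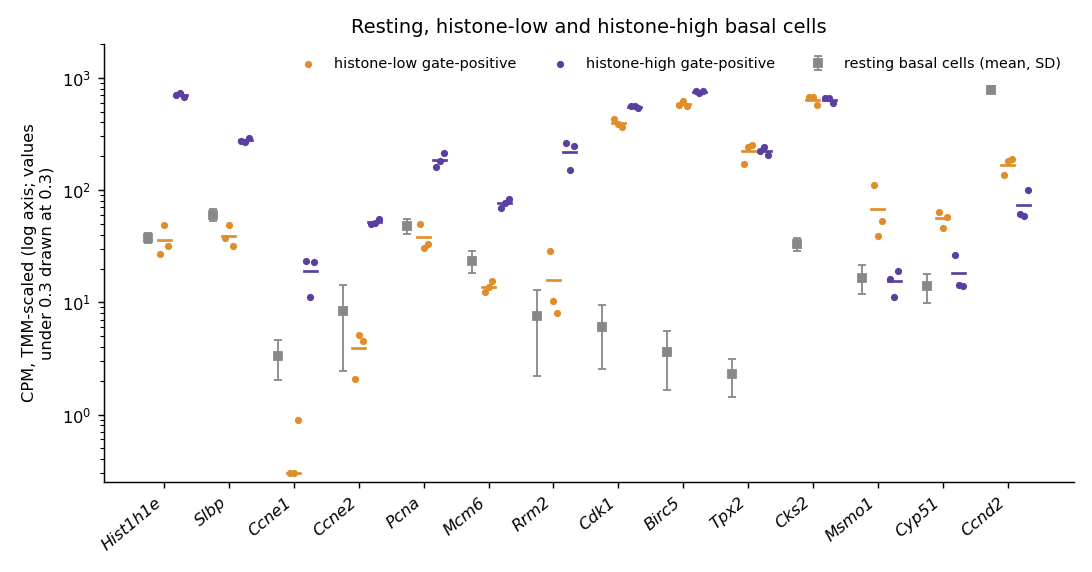
TMM-scaled CPM (vertical, log scale) of named genes in resting, histone-low and histone-high basal cells, points for libraries of the gate-positive kinds (under 0.3 drawn at 0.3) and mean ± SD over 3 libraries for resting cells. Slbp and Pcna are high in histone-high cells, whereas Msmo1 is at 39.1 to 111 CPM in histone-low and 11.1 to 18.8 in histone-high cells.

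Levels along the gate sum were described in histone-low basal cells, in CPM of total UMIs as mean ± SD over 3 libraries, with no test because the gate sum also grows with depth. Ccnd2 was at 762 ± 61.6 in resting cells, 537 ± 53.4 at a sum of 2 to 4 (56 cells), 321 ± 191 at 5 to 9 (38 cells), 331 ± 112 at 10 to 19, 204 ± 61.9 at 20 to 49 and 91.7 ± 4.98 at 50 or more (60 cells). Cdkn2d was highest at the top but did not rise steadily. It was at 19.5 ± 1.33 in resting cells, 20.4 ± 11.4 at 2 to 4, 67.8 ± 56.1 at 5 to 9 and 42.7 ± 36.9 at 10 to 19. Its mean was 174 ± 119 at 20 to 49 and 339 ± 46.8 at 50 or more. Kpna2 was at 13.5 ± 1.98 in resting cells, 40.1 ± 14.9 at 5 to 9 and 24.1 ± 31.3 at 10 to 19. It was at 83.6 ± 46.5 at 20 to 49 and 323 ± 46.5 at 50 or more, against 156 ± 33.1 in histone-high cells. Ccnd1 did not fall steadily. It was at 169 ± 18.8 in resting cells, 168 ± 56.5 at 5 to 9, 136 ± 91.9 at 10 to 19 and 252 ± 75.1 at 20 to 49. Only at 50 or more (44.0 ± 44.3) and in histone-high cells (43.5 ± 13.05) was its mean far below that of resting cells. The bins from 5 to 49 hold 38 cells each, those at 5 to 9 with a median of only 3190 UMIs, and the SDs of Ccnd2 overlapped among them. Of all gate-positive cells, 22 of 57 at a sum of 5 to 9 had a mitochondrial share under 1%, against 5 of 73, 1 of 103 and 0 of 121 in the higher bins, and the part of this in the trend was not tested.

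**Figure D5:**
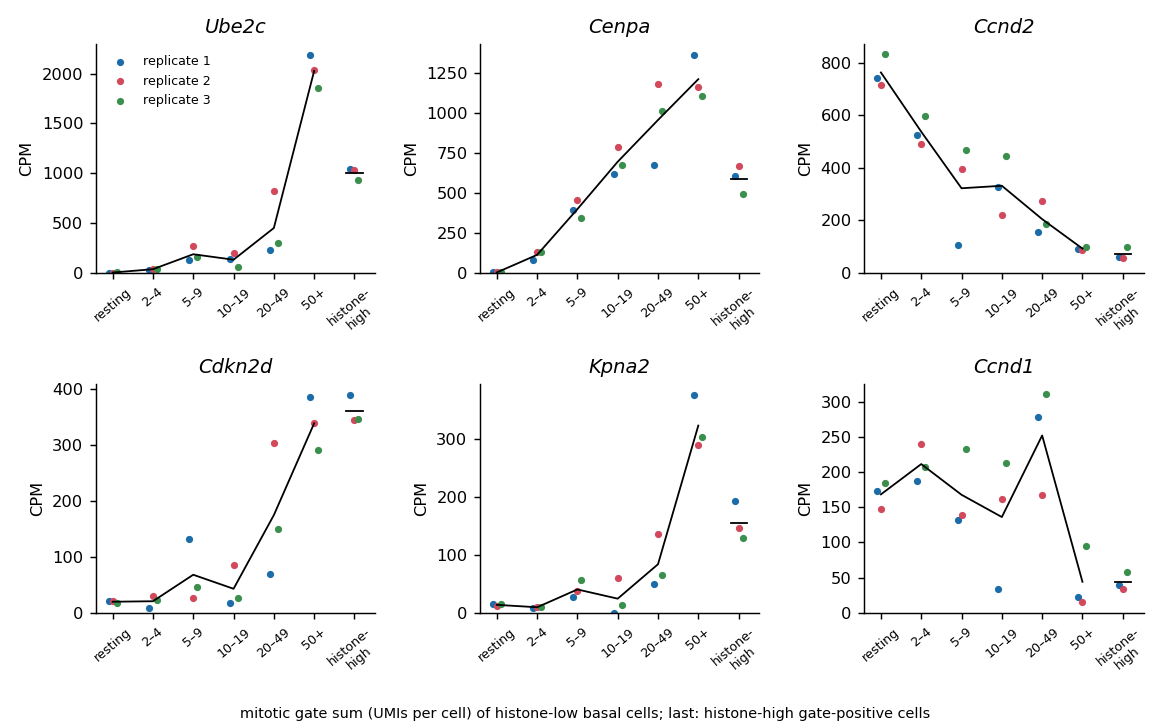
CPM of total UMIs (vertical, linear from 0, 1 panel a gene) in histone-low basal cells by gate sum, with histone-high gate-positive cells last, points for libraries and lines for means. Ccnd2 goes from 762 in resting cells to 91.7 at a gate sum of 50 or more, and Kpna2 from 13.5 to 323.

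Krt1 and Krt10, the keratins of the layers above, made up at least 0.5% of UMIs in 14 of 354 gate-positive cells, 1.23%, 3.67% and 5.49% in replicates 1 to 3 (mean 3.46 ± 2.13%, SD, n = 3). Among resting cells it was 180 of 2156 (8.35%), or 7.60%, 7.11% and 9.98%. The share was lower in gate-positive cells in each library, with no test made. With all classes assigned anew on counts thinned to 5000 UMIs it was 5 of 260 (1.92%) against 153 of 1791 (8.54%). In Langerhans-like and T-like cells, which should lack both keratins, it was 0 of 67, with an exact upper bound of 5.36% for counting error and a median of 4735 UMIs. By the Krt5 and Krt14 rule, 2 of these 67 cells counted as basal (2.99%, exact 95% interval 0.364 to 10.4%).

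Of these 14 cells, 5 were histone-high, 1 was called a doublet and 2 had a mitochondrial share under 1%. Their Krt1 and Krt10 share ran from 0.506% to 2.43%, and 5 held over 20000 UMIs, against 58 of all 354 gate-positive cells. The other gate-positive cells had a median of 0.0221%, and 3 of them lay between 0.4% and 0.5%. The comparison of genes between these 14 cells and the rest was not possible with under 10 cells in each of the 3 libraries.

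Below the keratin rule the gate was rarely passed, by 24 of 2747 cells (0.874%). Of these, 17 had Krt5 and Krt14 at 0.25 to 0.5% and 10 had Krt1 and Krt10 at 0.5% or more. Among 2263 suprabasal cells, with Krt1 and Krt10 at 0.5% or more and Krt5 and Krt14 below it, 10 passed the gate (0.442%) and 181 held any gate UMI (8.00%). One of 46 Langerhans-like cells, with 649 class II UMIs, and 1 of 21 T-like cells, with 80 T cell receptor complex UMIs, also passed.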

How the data were processed

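Per the labels' protocols, a 10x Genomics V(D)J kit was used, which reads 5′ transcript ends. Per the submitters' processing notes, the authors used Cell Ranger 3.1.0 on mm10, and deposited raw UMI counts per gene and cell. Neither labels nor headers name their annotation version. Coordinates come from GENCODE M21.

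Cells, members and gene lists were chosen with earlier results of these data known. UMI counts were summed per library and class of at least 10 cells and tested by quasi-likelihood in edgeR 4.0.16 under R 4.3.3, with library as a block, TMM scaling, its low-count filter and Benjamini-Hochberg adjustment. Each library gives every class, so the block pairs profiles. Deviations of the paired profiles correlated across genes with r of 0.155, 0.235 and 0.130. DESeq2 1.42.0, thinning to 5000 UMIs (seed 1), Scrublet in scanpy 1.11.5 and other gates were alternatives. Doublets stayed in. Summed UMIs of gate-positive cells were 1220053 to 2267625 per library.

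Named were the gate genes, the 2 most abundant tested members of each cell cycle list, the 8 largest rises and falls elsewhere (at least 30 CPM) and the largest called rise and fall of each other list. Further genes were named for their role after values were seen. Some genes of the lists are not reported here. The planned comparison with basal cells rich in histones outside the gate, and that of Krt1 and Krt10 positive cells, were not run for lack of cells, and the histone comparison took their place. On simulated data the test against resting cells found 44.8% of 1.5-fold, 89.6% of 2-fold and 97.0% of 4-fold changes. These were 30, 60 and 64 true calls, beside 15 false calls among 10134 genes. The test between histone-high and histone-low cells found 17.9%, 49.3% and 89.4%, with 12 false calls among 8224 genes. The simulated counts held no library effect and far fewer changed genes than were called against resting cells in the data.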

Additional observations from a re-analysis of the deposited data

How the results depend on the processing

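Against resting cells the counts of 1973 higher and 1698 lower genes were 1236 and 693 with DESeq2, where 1928 of its 1929 calls were shared, 1238 and 976 with cells thinned to 5000 UMIs, and 1106 and 819 without histone-high cells. Leaving out 1 library gave 1595 to 1803 higher and 1127 to 1566 lower. Without the replicate block the counts were 1749 and 1462. Between histone-high and histone-low cells, thinning gave 280 higher and 140 lower, and leaving out 1 library 262 to 443 higher and 88 to 216 lower. The lower count was 132 with DESeq2, 203 with a gate of 10 UMIs, 156 at a mitochondrial share of at most 5% and 577 with total UMIs. Without the replicate block it was 455 higher and 219 lower. Thinning and smaller groups leave fewer UMIs and cells; for the other changes the cause was not tested.

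The gate-positive share of 14.0% was 18.0% at a mitochondrial share of at most 5%, and 13.0 to 15.7% without 1 library. The histone-high share was 48.1 to 54.6% without 1 library. The Krt1 and Krt10 share of 3.46% was 1.22% at a threshold of 1% and 2.45 to 4.58% without 1 library. Hist1h1e (-0.085) and Tfdp1 (-0.44) changed sign without histone-high cells. Of the 72 named genes against resting cells, 53 kept their call in every alternative. Insig1 and 16 others lost it in at least 1. The comparisons that lacked cells have no other settings.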
